A study of Rattus norvegicus with 13 samples.

Results

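In the testis of WKY rats, 466 windows with strong DNA break signal had little or no signal in the related SHR strain. A hotspot was called in WKY at 458 of them and in wild-type SHR at 5. A second SHR library, whose strengths played no part in choosing the windows, showed little or no signal there either. These 466 windows were selected on their own measured values, out of 96640 windows of the deposited hotspot table. A window had to lie on chromosomes 1 to 20, to have a hotspot strength of at least 400 in WKY and of at most 20 in wild-type SHR, and to have no other window starting within 3000 bp. Of the 91120 windows on these chromosomes, 75246 were isolated in this way, and 6910 of those reached the WKY minimum. The 6444 strong isolated windows with an SHR strength over 20 are called retained and serve as the comparison. WKY and wild-type SHR strengths at the chosen windows are therefore a description of the choice and not a result, and they are compared by no test.

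The study mapped meiotic DNA double-strand breaks (DSBs) in adult rat testes by DMC1 SSDS, which recovers the single-stranded DNA bound by DMC1 and sequences it. The 5 libraries with values came from wild-type WKY, wild-type BN (BN/RIJHsd) and SHR (SHR/OlaIpcv) of 3 genotypes, namely wild-type, Prdm9+/- (written KO/wt here) and Prdm9-/- (KO/KO). The KO/KO male was homozygous for a deletion that truncates Prdm9, and wild-type SHR was its littermate. WKY and SHR carry the same wild-type Prdm9 allele and BN another, by the study's account. There was 1 library per condition, so that no comparison between strains or genotypes could be tested and a difference between strains cannot be told apart from one between single libraries. Intervals after a percentage or a median are 95% intervals over windows and cover counting over windows only.

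PRDM9 is a zinc-finger protein that binds DNA in meiotic cells and trimethylates histone H3 beside its binding sites. The DSBs that start recombination are then made at those sites, and DMC1 coats the resected ends of each break. Where PRDM9 is missing, breaks form instead at places that carry H3K4me3 for other reasons, such as promoters. A DSB hotspot thus depends both on the PRDM9 allele in the cell and on the DNA sequence at the site, and related strains with the same allele can differ at a site.

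Strength is a whole number that the authors gave each window in each library. It can fall below 0, and its scale differed between libraries: called autosomal hotspots had a median strength of 210 in WKY, and the medians of the other libraries were 72 (wild-type SHR), 70 (KO/wt), 64 (KO/KO) and 71 (BN). At retained windows the strength in wild-type SHR was 0.205 times that in WKY at the median, and the strength in KO/wt was 0.208 times that in WKY. These ratios describe windows kept for an SHR strength over 20 and set no expectation for the others. Among retained windows with a WKY strength of 400 to under 600, the median SHR strength was 98 and the 5th percentile 37.

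The chosen windows were close to the retained ones at the WKY median, reached higher in the upper part, and were near background in SHR. Their median WKY strength was 626.5 (593 to 667) with a range of 400 to 9447, against 604.5 (597 to 612) at retained windows. The 95th percentile in WKY was 1576.5, against 1347.7 at retained windows. In wild-type SHR their strengths ran from -15 to 20 with a median of 5, against a median of 133 at retained windows. For a background level, 15050 isolated windows that were called in BN and in neither WKY nor wild-type SHR had a median SHR strength of 1 and a mean of 2.30. The mean at the chosen windows was 5.46, somewhat above that of the windows called in BN alone among these 3 strains.

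**Figure D1:**
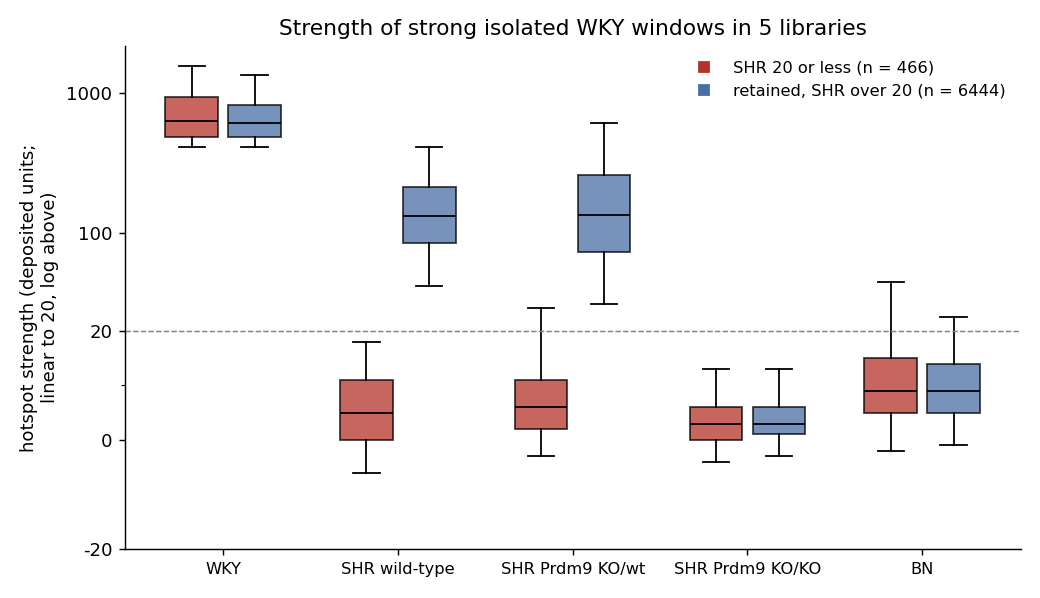
Hotspot strength at the 466 chosen windows, with an SHR strength of 20 or less (red), and the 6444 retained windows (blue) in the 5 libraries, 1 library each. Boxes hold the middle 50% of windows with the median as a line, whiskers the 5th to 95th percentile, and the axis is linear up to 20 (dashed line) and logarithmic above. The sets overlap in WKY, KO/KO and BN, while in KO/wt the medians are 6 and 134.

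KO/wt, from the same SHR strain, had almost no signal at these windows, and the rule did not use its strengths. Its strengths there had a median of 6 (5 to 6), a 5th percentile of -3, a 95th percentile of 29.75 and a highest value of 103. At retained windows the KO/wt median was 134 (130 to 138), and at the background windows called in BN it was 3. A hotspot was called in KO/wt at 12 of the 466 windows, 2.58% (1.48 to 4.45%), against 5965 of 6444 retained windows, 92.6% (91.9 to 93.2%), and 21.6% of all autosomal windows. The sets were thus far apart in a library whose strengths took no part in their choice. Isolation counted every window of the table, whichever library it was called in. KO/wt strength was over 20 at 46 of the chosen windows, 9.87% (7.48 to 12.9%), and at 31.8% of all autosomal windows. No more than 2 of the 466 windows passed 0.5 times the retained KO/wt median.

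KO/wt signal was highest where the rule allowed the most SHR signal. None of the 126 windows with an SHR strength of 0 or less and none of the 217 with 1 to 10 was called in KO/wt, and KO/wt strength was 4 at the median of either band. These zero counts allow shares of up to 2.96% and 1.74% by the Wilson interval. All 12 KO/wt calls fell among the 123 windows with an SHR strength of 11 to 20, where the median was 12 (10 to 16) and the share called 9.76% (5.67 to 16.3%). Just beyond the limit, at 21 to 40, the 281 retained windows had a median of 31 and 50.9% were called. The limit of 20 thus cuts a graded scale, and the last band inside it holds weak SHR hotspots beside windows at background.

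**Figure D2:**
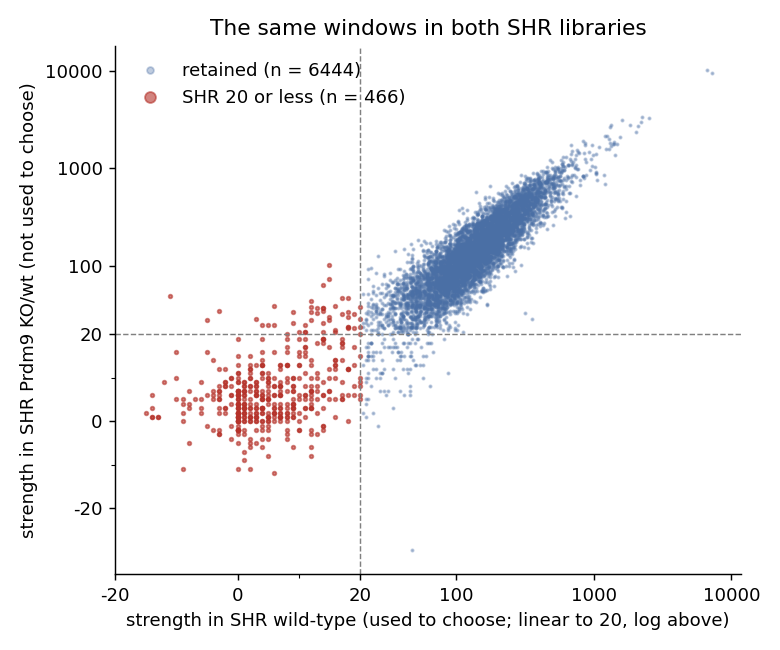
Strength in wild-type SHR (horizontal, used to choose) against strength in KO/wt (vertical, not used) for the 6910 strong isolated WKY windows, 1 point per window, with axes linear up to 20 and logarithmic above and dashed lines at 20. Of the 466 chosen windows (red), 420 lie at or below 20 in KO/wt, as do 117 of the 6444 retained windows (blue).

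Exchanging the libraries gave largely the same windows. KO/wt strength was at most 20 at 537 strong isolated windows, and 420 of these were chosen windows, which is 78.2% of that list and 90.1% of the chosen windows. The remaining 117 had a median wild-type SHR strength of 35 and so lay mostly not far over the limit.

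The values at the limits show how sharp the choice was. At an SHR strength of exactly 20 were 10 chosen windows, and 5 windows at 21 were left out. There were 123 chosen windows at 11 to 20 and the same number outside at 21 to 30. On chromosome 1 of rn5 from 250405687 to 250408687, a window just inside measured 1093 in WKY, 20 in SHR and 29 in KO/wt, and a hotspot was called there in SHR. Just outside, on chromosome 4 from 170413945 to 170416945, they were 554, 21 and 26. On the WKY side, 26 chosen windows lay less than 10 above the minimum, and 18 windows with little SHR signal were left out for lying up to 10 below it.

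At the chosen windows the calls of the authors mostly went with the strengths, which the rule had fixed for WKY and SHR. A WKY hotspot was called at 458 of the 466 windows (38.3% of all autosomal windows), and an SHR hotspot at 5 (21.8% of all autosomal windows). In WKY and in no other library, a hotspot was called at 436 (17.1% of all autosomal windows). In 381 windows the strength was 20 or less in all 4 libraries other than WKY, and 85 were over 20 in at least 1 of KO/wt, KO/KO and BN. Among retained windows an SHR hotspot was called at 6141 of 6444, so that some of them lacked a call too. With absence taken as no SHR call, the share of strong isolated windows was 11.1%, against 6.74% by strength. The median KO/wt strength was then 12, against 6.

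As a share of the 6910 strong isolated WKY windows, the 466 made up 6.74% (6.18 to 7.36%), and they held 7.31% of the summed WKY strength. The share was highest among the strongest WKY hotspots and lowest in the middle class. It was 6.47% (5.69 to 7.35%) at WKY strengths of 400 to under 600, 5.84% (4.99 to 6.83%) at 600 to under 1000 and 9.83% (8.16 to 11.8%) at 1000 or more. With KO/wt strength of 20 or less in place of SHR, the shares in the same classes were 8.04%, 6.36% and 10.3%. The order of the classes was the same by either library. The interval of the strongest class did not overlap that of the middle class in either case, but by KO/wt, at 8.61 to 12.3%, it overlapped that of the lowest class, at 7.17 to 9.002%. KO/wt calls at the chosen windows went the other way, with 10 of 219, 2 of 146 and 0 of 101, and the last count allows a share of up to 3.66%.

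The strongest of the chosen windows show the contrast one by one. On chromosome 16 of rn5 from 81089239 to 81092239 the strength was 2983 in WKY, 3 in SHR, 1 in KO/wt, 1 in KO/KO and 1 in BN. The next strongest, on chromosome 7 from 77178600 to 77181600, had 2801 in WKY, 12 in SHR, 14 in KO/wt, 0 in KO/KO and 31 in BN. A window on chromosome 1 from 5879419 to 5882419 had 2788 in WKY, -2 in SHR, 9 in KO/wt, -2 in KO/KO and 3 in BN. The windows on chromosomes 16 and 1 were within the middle 90% of the background windows in SHR and KO/wt, and that on chromosome 7 was at their 95th percentile, 12, in SHR and above it, also 12, in KO/wt.

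A second window on chromosome 7, from 137429686 to 137432686, had 2678 in WKY, 4 in SHR, 25 in KO/wt, 4 in KO/KO and 29 in BN. On chromosome 11 from 36919982 to 36922982 the values were 2593 in WKY, 13 in SHR, 8 in KO/wt, 0 in KO/KO and -3 in BN. On chromosome 20 from 8907993 to 8910993 they were 2151, 0, 2, 7 and 14 in the same order of libraries. The KO/wt value of 25 on chromosome 7 was the only one over 20 among the 10 strongest windows, and no hotspot was called there.

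The other windows among the 10 strongest lay on chromosome 8 from 56640251 (WKY 1999, SHR -1, KO/wt -1), on chromosome 1 from 284944749 (1989, 7 and 0) and on chromosome 11 from 81755815 (1953, 8 and 16). In these, KO/KO strengths were 3, 7 and 7 and BN strengths 12, 7 and 9, so that WKY stood alone.

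The window of highest WKY strength differed from the rest. It lay on chromosome 1 from 58462998 to 58465998 and had 9447 in WKY, 5 in SHR, 9 in KO/wt and -3 in KO/KO, but 1519 in BN, where a hotspot was called as well. Its neighbours also carried high values in WKY and BN together. At 12.943 kb to the right the strengths were 1794 in WKY and 260 in BN, at 17.85 kb they were 1228 and 118, and at 19.467 kb they were -1276 and -102. Of these 3 positions none was called in WKY and the first and second were called in BN, while a window between them at 14.934 kb, with 714 in WKY and 127 in BN, was called in WKY alone. All 4 were at 11 or below in both SHR libraries. The parallel values in 2 strains with different Prdm9 alleles, negative ones included, set this place apart from the typical chosen window, and what lies behind them was not tested.

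**Figure D3:**
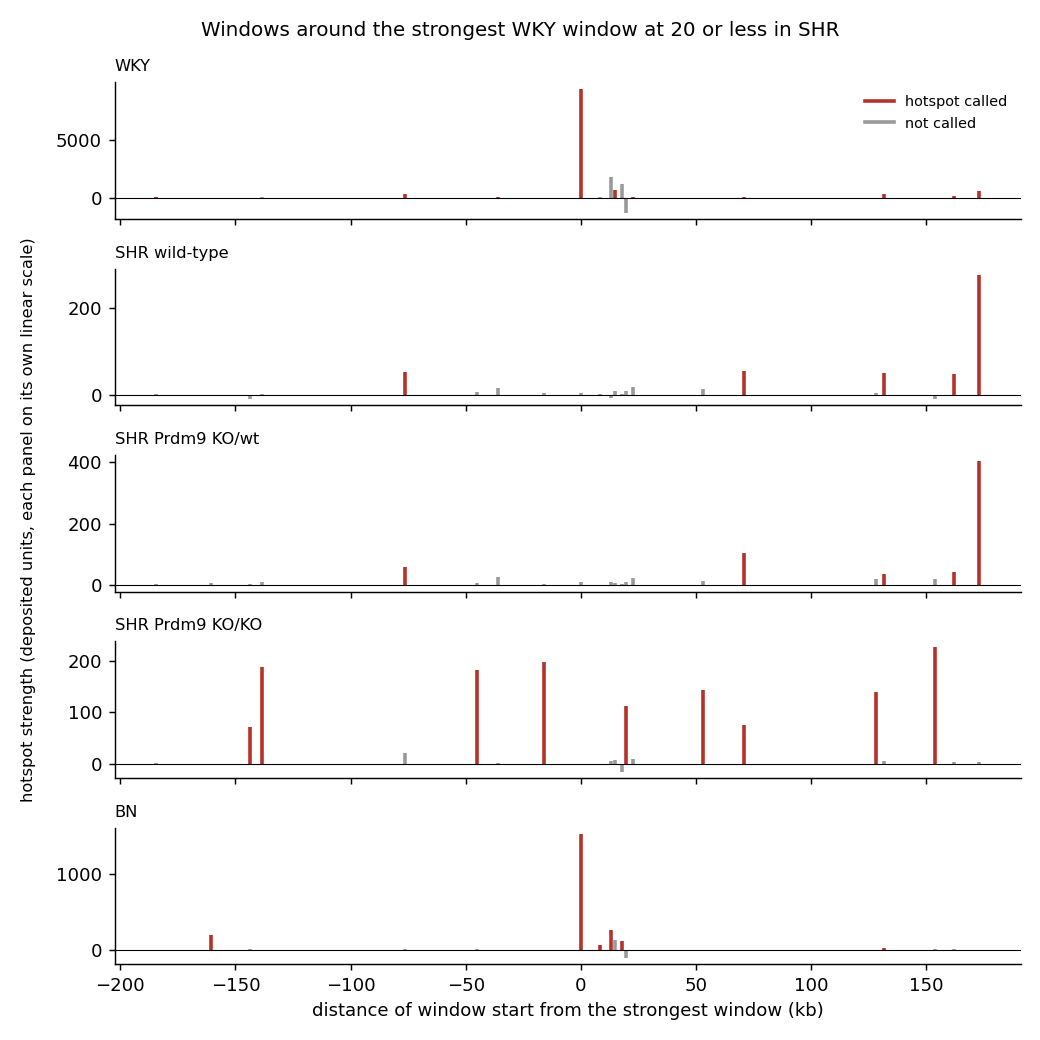
Strength of each window within 200 kb of the strongest chosen window, by distance in kb, in the 5 libraries (1 each, every panel on its own linear scale), with called hotspots in red and other windows in grey. WKY and BN share a group of high and negative values from 0 to 19.467 kb that SHR wild-type and KO/wt lack, while the WKY hotspot at 173.072 kb (641) is also strong in SHR (276) and KO/wt (404).

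BN, which has another Prdm9 allele, had few hotspots at the chosen windows, and so had the retained ones. Its median strength was 9 (9 to 10) at the chosen and 9 (9 to 9) at the retained windows. It was called at 12 of 466, 2.58% (1.48 to 4.45%), and at 141 of 6444, 2.19% (1.86 to 2.57%), against 20.8% of all autosomal windows. The intervals overlap, so that among isolated windows BN calls did not separate hotspots that SHR had from those that it lacked. Without isolation, BN was called at 9.46% (7.40 to 12.0%) of the windows then chosen. The share of retained windows in that setting was not computed. BN strengths over 20 were at 11.6% (8.99 to 14.8%) of the chosen and 8.46% (7.80 to 9.16%) of the retained windows.

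The chosen windows with BN signal were a mixed group. All 8 windows with no WKY call despite a WKY strength of 400 or more were over 20 in BN, and 6 of them were called in BN. One of them, on chromosome 9 from 117791971 to 117794971, had 447 in WKY, -2 in SHR, 8 in KO/wt and 288 in BN. Another, on chromosome 15 from 68795955 to 68798955, had 1067 in WKY, -11 in SHR, 49 in KO/wt and 154 in BN. The third highest BN strength, 247 on chromosome 1 from 202336086, came with 571 in WKY, 0 in SHR and 11 in KO/wt. At the 54 windows over 20 in BN, KO/wt strength had a median of 12, against 5 at the other 412, and these windows included the highest KO/wt value. That value, 103, was on chromosome 12 from 5498396 to 5501396, where WKY had 627, SHR 15, KO/KO 69 and BN 148, and no KO/wt hotspot was called. Among the 412, which were all called in WKY, KO/wt was called at 9, or 2.18% (1.15 to 4.10%).

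The next KO/wt strengths in order were well below that one. They were 73 on chromosome 3 from 99410990, with 529 in WKY and 15 in SHR, and 64 on chromosome 6 from 147553209, with 512 and 14. The fourth was the 49 on chromosome 15 given above, and none of these 3 was called in KO/wt. The highest strength with a KO/wt call was 47. It was reached on chromosome 2 from 254772901 to 254775901, with 419 in WKY and 18 in SHR. A window on chromosome 10 from 94728388, with 493 and 17, had the same value. Apart from the window on chromosome 15, with an SHR strength of -11, these windows had SHR strengths of 14 to 18 and lay in the lowest WKY class. Those on chromosomes 6, 2 and 10 were over 20 in BN as well (45, 28 and 52), and that on chromosome 10 was called in BN.

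Without PRDM9, in KO/KO, the chosen windows carried as little signal at the median as the retained ones. The median KO/KO strength was 3 in both sets, with intervals of 2 to 3 and 3 to 3. A hotspot was called at 4 chosen windows, 0.858% (0.334 to 2.19%), and at 28 retained windows, 0.435% (0.301 to 0.627%), against 38.8% of all autosomal windows. The highest values were 108 on chromosome 8 from 63870750 (WKY 411), 85 on chromosome 5 from 158417267 (WKY 655) and 82 on chromosome 14 from 23469813 (WKY 651, BN 206). Isolation left out strong WKY windows with any other window of the table, KO/KO ones included, starting within 3000 bp. Without isolation, KO/KO was called at 1.76% (0.987 to 3.13%) of the windows then chosen. The share of retained windows was not computed there. Isolated strong WKY windows of either set thus rarely held a hotspot called in the absence of PRDM9.

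The chosen windows were spread over all 20 chromosomes, with a median of 20.5 a chromosome, but not in an even share. Chromosome 20 had the highest share of its strong isolated windows, 16 of 132 or 12.1% (7.60 to 18.8%), and chromosome 14 the lowest, 9 of 310 or 2.90% (1.53 to 5.42%). By KO/wt strength of 20 or less, the shares were 16.7% (11.3 to 23.9%) on chromosome 20 and 3.55% (1.99 to 6.24%) on chromosome 14. The intervals of these chromosomes do not overlap in either library, though both were picked as the extremes of 20. The genome-wide 6.74% lay inside the interval of 15 chromosomes, above that of 2 and below that of 3. Over the 20 chromosomes Spearman's rho between the shares by SHR and by KO/wt was 0.913, a value given as a description because both shares count mostly the same windows.

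**Figure D4:**
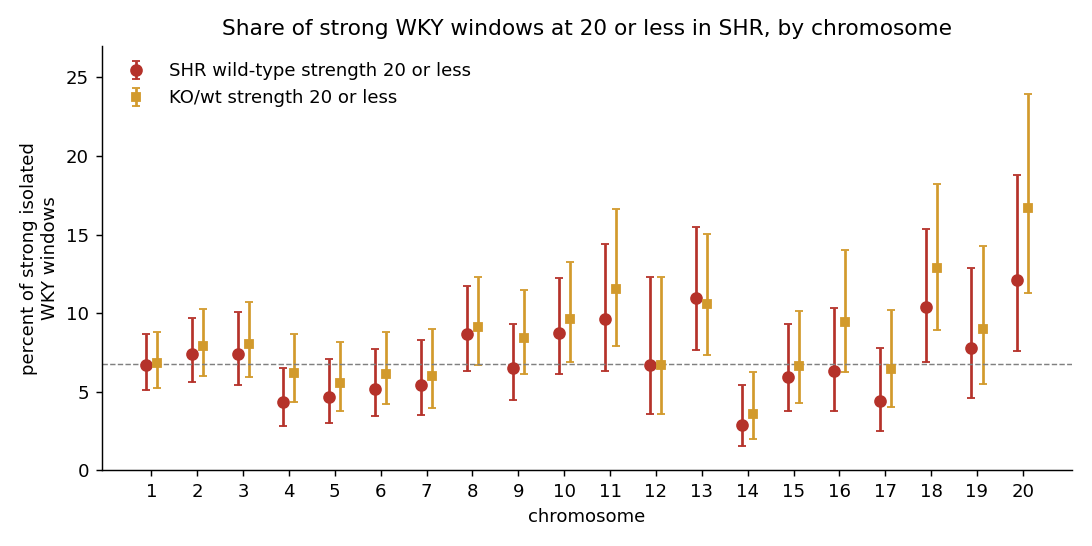
Percent of strong isolated WKY windows with a strength of 20 or less in wild-type SHR (red circles, the chosen windows) and in KO/wt (yellow squares) on each autosome, with Wilson 95% intervals and the genome-wide 6.74% as a dashed line. Chromosome 20 stands highest at 12.1% and chromosome 14 lowest at 2.90%, and KO/wt gives 16.7% and 3.55% there.

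Windows near the chromosome ends were chosen somewhat more often. Within 10 Mb of the first or last window of a chromosome, 89 of 961 strong isolated windows were chosen, 9.26% (7.59 to 11.3%), against 377 of 5949 farther in, 6.34% (5.75 to 6.98%). This contrast rests only on the WKY and SHR values that the rule used, and the KO/wt share by position was not computed.

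In bins of 10 Mb, the number of chosen windows was uneven, by the WKY and SHR values that the rule used. Of 273 bins with a strong isolated window, 90 had no chosen window and 66 had 1, while 30 bins had 5 or more. Those 30 bins held 171 of the chosen windows, 36.7%, and 13.9% of the strong isolated windows. They were picked by this count, which by itself gives them an excess. The numbers that an even scatter would give were not computed, so that no concentration is shown by these values. The most were on chromosome 1 from 250 to 260 Mb, with 9 of 35 strong isolated windows, on chromosome 8 from 120 to 130 Mb, with 8 of 35, and on chromosome 18 from 50 to 60 Mb, with 7 of 34. KO/wt strength was 20 or less at 7, 11 and 7 windows of these bins. A bin on chromosome 1 from 280 to 290 Mb also had 7, of 38. At the other extreme, none of the 44 strong isolated windows on chromosome 14 from 80 to 90 Mb was chosen, and 1 had a KO/wt strength of 20 or less.

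Over WKY hotspots of every strength, chosen ones included, these 3 bins were close to the autosomes. Wild-type SHR was also called at 49.4% (41.7 to 57.1%) of WKY-called windows in the chromosome 1 bin from 250 Mb, 46.5% (38.1 to 55.1%) in the chromosome 8 bin and 48.8% (41.4 to 56.3%) in the chromosome 18 bin. Over all autosomes it was 51.1% (50.6 to 51.6%). The interval of each of the 3 bins holds the autosomal value.

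Along a chromosome, chosen windows tended to follow each other. The next strong isolated window after a chosen one was itself chosen in 65 of 463 cases, 14.0% (11.2 to 17.5%), and after a retained one in 401 of 6427, 6.24% (5.67 to 6.86%). By KO/wt strength of 20 or less at the next window, the shares were 16.0% (12.9 to 19.6%) and 7.20% (6.60 to 7.86%). The share after a chosen window was higher at distances of up to 50 kb (17.4% against 6.24%), of 50 to 200 kb (12.0% against 6.52%) and of 200 kb to 1 Mb (15.4% against 5.88%), and over 1 Mb the values of 10.4% (4.53 to 22.2%) and 7.16% (5.17 to 9.84%) could not be told apart. At the second window it was 14.7% against 6.20%, and at the tenth 6.94% against 6.64%. From the third to the eighth window the shares after a chosen window were higher by value with overlapping intervals, at the ninth they were 9.58% (7.19 to 12.7%) against 6.48% (5.90 to 7.12%), which do not overlap, and so the excess did not fall steadily with distance. With an isolation distance of 10000 bp the shares were 9.43% (6.36 to 13.7%) and 6.34% (5.58 to 7.19%), and their intervals overlap. That setting left 244 chosen windows with a next one, and the cause of the change was not tested. At a WKY minimum of 800 the shares were 13.0% (8.57 to 19.2%) and 7.77% (6.59 to 9.14%), and their intervals overlap as well.

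**Figure D5:**
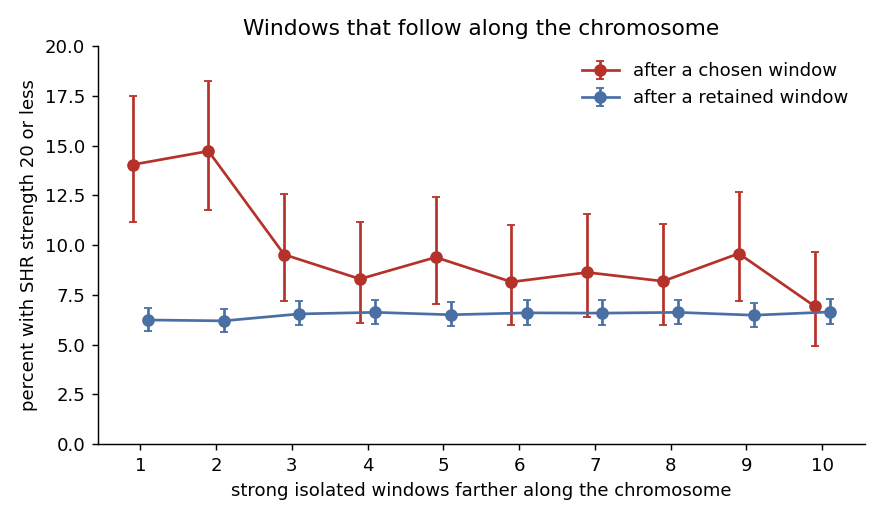
Percent of strong isolated windows with an SHR strength of 20 or less at the first to the tenth strong isolated window after a chosen window (red) and after a retained one (blue), with Wilson 95% intervals. The red values start at 14.0% and 14.7% and reach 6.94% at the tenth, and the blue values stay between 6.20% and 6.64%.

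Most chosen windows nevertheless stood alone. In the order of strong isolated windows, 343 were not next to another chosen window, 51 runs held 2 and 7 runs held 3, and no run was longer. The widest run spanned 2450 kb on chromosome 20 from 4698677 to 7148666. Its windows had WKY strengths of 789, 585 and 523, SHR strengths of 2, 2 and 0 and KO/wt strengths of 10, -6 and 9. By the definition of a run, no retained window lay between them.

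Inside that stretch of chromosome 20, few WKY hotspots of any strength were called in SHR. Of 38 windows called in WKY there, 2 were also called in wild-type SHR, 5.26% (1.46 to 17.3%), and 2 in KO/wt. Over all autosomes SHR was called at 51.1% of WKY-called windows and KO/wt at 45.1%. The 38 windows had a median WKY strength of 114, against 210 over all WKY-called windows on the autosomes, and the part of this in the low share was not tested. KO/KO hotspots were called at 49 of the 99 windows in the stretch. The first 10 Mb of chromosome 20 in all had 94 WKY-called windows, of which 27.7% (19.6 to 37.4%) were called in SHR. The stretch was picked for its run of chosen windows, and the 3 windows of the run are among the 38.

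The next widest runs differed from each other in this respect by value. On chromosome 10 from 5592415 to 6651061, the 3 windows had WKY strengths of 451, 640 and 966, SHR strengths of 7, 5 and 0 and KO/wt strengths of 6, 1 and 10. Yet 7 of 13 WKY-called windows in that span were called in SHR, 53.8% (29.1 to 76.8%). On chromosome 1 from 255766276 to 256738345, the strengths were 406, 566 and 818 in WKY, 0, 15 and 1 in SHR and 0, 7 and 3 in KO/wt. There, 2 of 15 WKY-called windows were called in SHR, 13.3% (3.74 to 37.9%). The intervals of both shares overlap. The WKY-called windows had a median WKY strength of 362 in the chromosome 10 span and 155 in the chromosome 1 span. The part of this in the shares was not tested. By value, a run of chosen windows could thus lie among WKY hotspots with many or with few SHR calls.

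At the median, the nearest hotspots on each side of a chosen window were like those beside a retained one. The nearest window of the table lay 18.04 kb to the left and 20.5 kb to the right at the median, against 19.4 and 19.7 kb for retained windows. The nearest WKY hotspot lay 45.1 kb (37.2 to 50.3) to the left and 47.1 kb (41.5 to 50.9) to the right, against 47.8 and 47.4 kb. Its median WKY strength was 233.5 on the left and 218 on the right, against 223 and 218. These medians differed little between the sets, and their intervals overlap where given. The 95th percentile of the distance to the nearest window called in WKY and wild-type SHR was 608 kb left and 610 kb right. Beside retained windows it was 439 and 451 kb. For the nearest WKY hotspot the 95th percentile was 210 and 260 kb, against 217 and 207 kb.

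SHR signal at that next hotspot was close to that beside retained windows. Of the nearest WKY-called windows on both sides, 49.5% (46.3 to 52.7%) were called in wild-type SHR, against 52.2% (51.4 to 53.1%) beside retained windows. In KO/wt 42.3% (39.1 to 45.5%) were called, against 46.0% (45.1 to 46.8%). At the nearest hotspot called in both WKY and SHR, the SHR strength was 0.217 times the WKY strength at the median (0.209 to 0.230), against 0.214 (0.211 to 0.216) beside retained windows. Where this shared hotspot lay within 10 kb, which was so in 48 cases, the ratio was 0.233 (0.185 to 0.291), against 0.226 (0.214 to 0.234). For KO/wt the ratio at any distance was 0.187 (0.177 to 0.200), against 0.190 (0.186 to 0.193). The intervals of the KO/wt calls overlap narrowly, and the ratios describe only neighbours that kept an SHR call, so that a neighbour without one does not enter them. Without that condition, the nearest WKY-called windows had a median SHR strength of 33 beside chosen and 37 beside retained windows, and a median KO/wt strength of 25 and 29.

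Windows with the opposite calls, in SHR and not in WKY, were nearer to chosen windows at large distances but not close by. Within 50 kb, 41 chosen windows had one, 8.80% (6.55 to 11.7%), against 7.62% (7.00 to 8.29%) of retained windows. Their nearest such window on either side was at a median of 316 kb (280 to 358), against 484 kb (464 to 505). With a call in both wild-type SHR and KO/wt required, a condition added after these values were seen, the medians were 494 kb (405 to 565) and 851 kb (809 to 886). The intervals do not overlap with either definition, but they count windows as independent. Neighbouring windows can share the same nearest one, so that these intervals are likely too narrow. Within 100 kb the shares with such a window were 16.5% (13.4 to 20.2%) and 14.7% (13.8 to 15.6%), and their intervals overlap. At the median, chosen windows thus lay closer by value than retained ones to windows called in SHR and not in WKY. The WKY strengths of those windows are not given here, and a missing WKY call need not mean missing signal.

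The direction of the difference cannot be read from these data. A hotspot that SHR lost and one that WKY gained give the same values, and BN, with its other allele, does not separate them. A window where SHR reads could not be placed uniquely on rn5 would also look the same as one without breaks, and this was not tested.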

How the data were processed

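DMC1 SSDS libraries of 5 conditions, 1 each, were compared in 1 deposited table of merged hotspot windows; the other 8 of the 13 samples lack a column there, and their signal is not analysed here. Reads were aligned by the authors to rn5 with a modified bwa (version 0.7.12, also in the submitters' processing notes) and called hotspots from uniquely mapping type 1 single-stranded fragments with a quality score over 30 in both reads. Per library, the authors deposited a hotspot strength, treated as a score, and a flag that is 1 where a hotspot was called and 0 elsewhere. How strength was computed and scaled, and how windows were merged, is not given in the sources used here. The depth in reads is unknown, so no value has a counting error of its own. Of the windows, 96639 are 3000 bp long and 1 is not. Coordinates are as deposited, and no gene annotation of rn5 was used here.

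The members, the comparisons and the lists were chosen with earlier results of these data known. Isolated means no other window start 3000 bp or less away on the chromosome. The windows named are the 10 of highest WKY, 5 of highest KO/wt and 3 of highest BN and KO/KO strength, the members of the 3 widest runs, and some of those nearest each limit. A window tied for the fifth place in KO/wt is named as well. The chromosomes named are the extremes, and the bins the 3 with most members, where the third place was tied. Distances are between window starts. Intervals are Wilson 95% intervals for percentages and order-statistic intervals for medians. With single libraries, conditions were compared without a test. Functions were tested on a simulated table of 90050 windows with 5 known answers, of which 5 were recovered. Scripts ran in Python 3.11.15 (pandas 2.3.3, numpy 2.4.6, scipy 1.17.1), with plots by matplotlib 3.10.9.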

Additional observations from a re-analysis of the deposited data

How the results depend on the processing

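No paired analysis was possible because each condition has a single library and the groups share no replicates. Among 95 values from other settings, 58 fell inside the reported interval (for the count, within 1.5 times) and 37 did not. A WKY minimum of 600 gave 247 windows with 0.810% called in KO/wt. A minimum of 800 gave 154 windows, 8.23% of the strong ones, with a median KO/wt strength of 4. Of these, 0% were called in KO/wt, 0% in KO/KO and 4.55% in BN. The next WKY hotspot lay 57.8 kb to the right, and 45.8% of next WKY hotspots were called in SHR. Within 50 kb, 6.49% of the 154 windows had a window called in SHR and not in WKY. An SHR maximum of 10 gave 4.96%, a median of 4 and 0% called in KO/wt, and a maximum of 30 gave 8.52%, 7 and 9.34%. Without isolation, 9.46% were called in BN, 21.1% of next windows were chosen, WKY hotspots lay 34.8 kb to the left and 40.6 kb to the right, and 44.4% of them were called in SHR. Isolation by 10000 bp gave 246 windows, 0.813% called in BN, 9.43% of next windows chosen, and distances of 55.4 and 51.5 kb. Within 50 kb, 5.28% of the 246 windows had a window called in SHR and not in WKY. With absence taken as no SHR call, the share was 11.1%, the median KO/wt strength 12 and the share of next windows 22.9%. A reach of 20 or 100 kb gave 3.004% and 16.5%. Taking presence as a strength over 20 gave 9.87% (KO/wt), 11.6% (BN) and 2.79% (KO/KO). Requiring a KO/wt call as well put the nearest window called in SHR and not in WKY at 494 kb. Chosen after seeing the data, the restriction to windows called in WKY with a BN strength of 20 or less left 412 of 6311 windows, 6.53%, with 2.18% called in KO/wt and 13.9% of next windows chosen against 6.04% after retained windows. The cause of these shifts was not tested beyond what each setting leaves out. The main limits are single libraries and unknown depth, and a strength near 0 cannot be told apart from a weak hotspot.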
